A study of Arabidopsis thaliana with 6 samples.

Results

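Signals of 7 genes of endosomal and related membrane traffic were compared between agp6 agp11 and wild type pollen tubes of Arabidopsis thaliana: the Rab GTPases RABA2c (AT3G46830), ARA6 (AT3G54840) and RHA1 (AT5G45130), the retromer genes MAG1 (AT3G47810) and VPS26A (AT5G53530), the syntaxin gene SYP73 (AT3G61450), and AT5G05010, a gene of the adaptor medium subunit family. They are 7 of the 14144 loci that could be named on the array. They were chosen by locus as genes of membrane traffic, with results of these data already known, and each of them has 1 probe set. The agp6 agp11 plants and the wild type plants were of the Nossen ecotype, their pollen was left to germinate in liquid medium for 8 h without light, and 3 pollen tube preparations of each genotype were measured, every one on an Affymetrix ATH1 array of its own. The agp6 agp11 plants are a single homozygous double null line, made by crossing plants with a Ds transposon in AGP6 to plants with one in AGP11, 2 genes for arabinogalactan proteins, which are heavily glycosylated proteins of the cell surface. Both genotypes were prepared in the same way from pooled flowers, and ungerminated grains were filtered out. The values are normalized intensities on a linear scale (signals). Their size depends on the probes, so the level of one probe set cannot be set against the level of another.

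Endosomes receive proteins and lipids taken up from the plasma membrane and newly made ones from the Golgi apparatus, and they pass them on to the vacuole or send them back. Rab GTPases label each compartment and recruit the machinery that moves and tethers vesicles, retromer retrieves sorting receptors from endosomes, and syntaxins belong to the SNARE proteins that fuse membranes. Pollen tubes grow at their tip, and this growth depends on a balance of secretion and uptake of membrane.

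Signals of the genes disrupted in the mutant went with the labels. AGP6 had signals of 31.1, 29.1 and 15.1 on the agp6 agp11 arrays, against 13313, 13677 and 9597 on the wild type arrays. AGP11 had signals of 34.7, 40.4 and 32.5 on the agp6 agp11 arrays, against 10016, 9448 and 5604 on the wild type arrays. The median signal of the 6 arrays lay between 23.3 and 24.6, and a signal of 40 was taken as the limit of detection. The log2 signals of 2 arrays correlated at 0.944 to 0.979 within a genotype and at 0.910 to 0.951 between genotypes. The tapetum, which feeds the pollen inside the anther, left little signal, as 1 of 24 values of its 4 listed genes exceeded 40. None of 4 listed genes of leaves and sepals was named, so these cells were not analysed here. The 2 named genes of 6 listed for the vegetative cell, which forms the tube, the pollen actins ACT4 and ACT12, summed to 3703 to 4396.6 in agp6 agp11 and to 2753 to 3330 in wild type, and neither passed the test. The 3 named genes of 4 listed for sperm cells, which the tube carries, summed to 15567.7 to 21428.3 in agp6 agp11 and to 8657.8 to 11402.3 in wild type. Most of these sums is the signal of DAZ3 alone, with means of 13412 in agp6 agp11 and 6941 in wild type. Of the 3 genes, GCS1 passed the test (log2 difference 1.646, adjusted p = 0.0135 in limma), and all 3 passed with the replicate block. The part of these marker differences in the results below was not tested. In RNA from whole tubes, fewer cells of a type and less RNA per cell cannot be told apart.

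The 7 genes did not move in one direction. RABA2c, ARA6, MAG1 and AT5G05010 had lower mean signals in agp6 agp11 than in wild type, and RHA1, VPS26A and SYP73 had higher ones. With limma on log2 signals, with a Benjamini-Hochberg adjustment across the 22746 probe sets and a threshold of 0.05, 1 of the 7 passed and it fell, where 3.68% of all probe sets passed, 2.01% rising and 1.67% falling. Same-numbered arrays of the 2 genotypes deviated alike, though the labels do not say what the replicate number stands for. When this number was added to the fit as a block (replicate block), 6 of the 7 passed, 3 rising and 3 falling. Of all probe sets 8.34% passed with the block, 5.03% rising and 3.31% falling. The genotypes did not overlap for 6 of the 7, as for 20.0% of all probe sets.

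The way in which the genes came by their names bears on these counts. ARA6 and AT5G05010 are named by the array's annotation table. RABA2c, RHA1, MAG1, VPS26A and SYP73 are named only through the study's own list of genes, which was drawn up from differences on these same arrays. Of the 1995 probe sets named in that list, 1483 were higher in agp6 agp11 and 512 lower, whether or not they passed. Of the same 1995, 41.4% passed the test (18.5% lower and 22.9% higher in agp6 agp11), 76.3% passed with the replicate block and 95.4% did not overlap between genotypes. How many of these 5 genes were called therefore depends on the list that named them, and nothing is read from that count. The p of each was adjusted over all probe sets, whatever their names. The 5 could be taken up only because that list names them. Of the 2 genes that the annotation table names, neither passed the test and ARA6 passed with the replicate block, beside 3.56% and 7.88% of all probe sets named by that table. Where the table names a probe set and the study's list does not, 0.0488% passed.

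**Figure D1:**
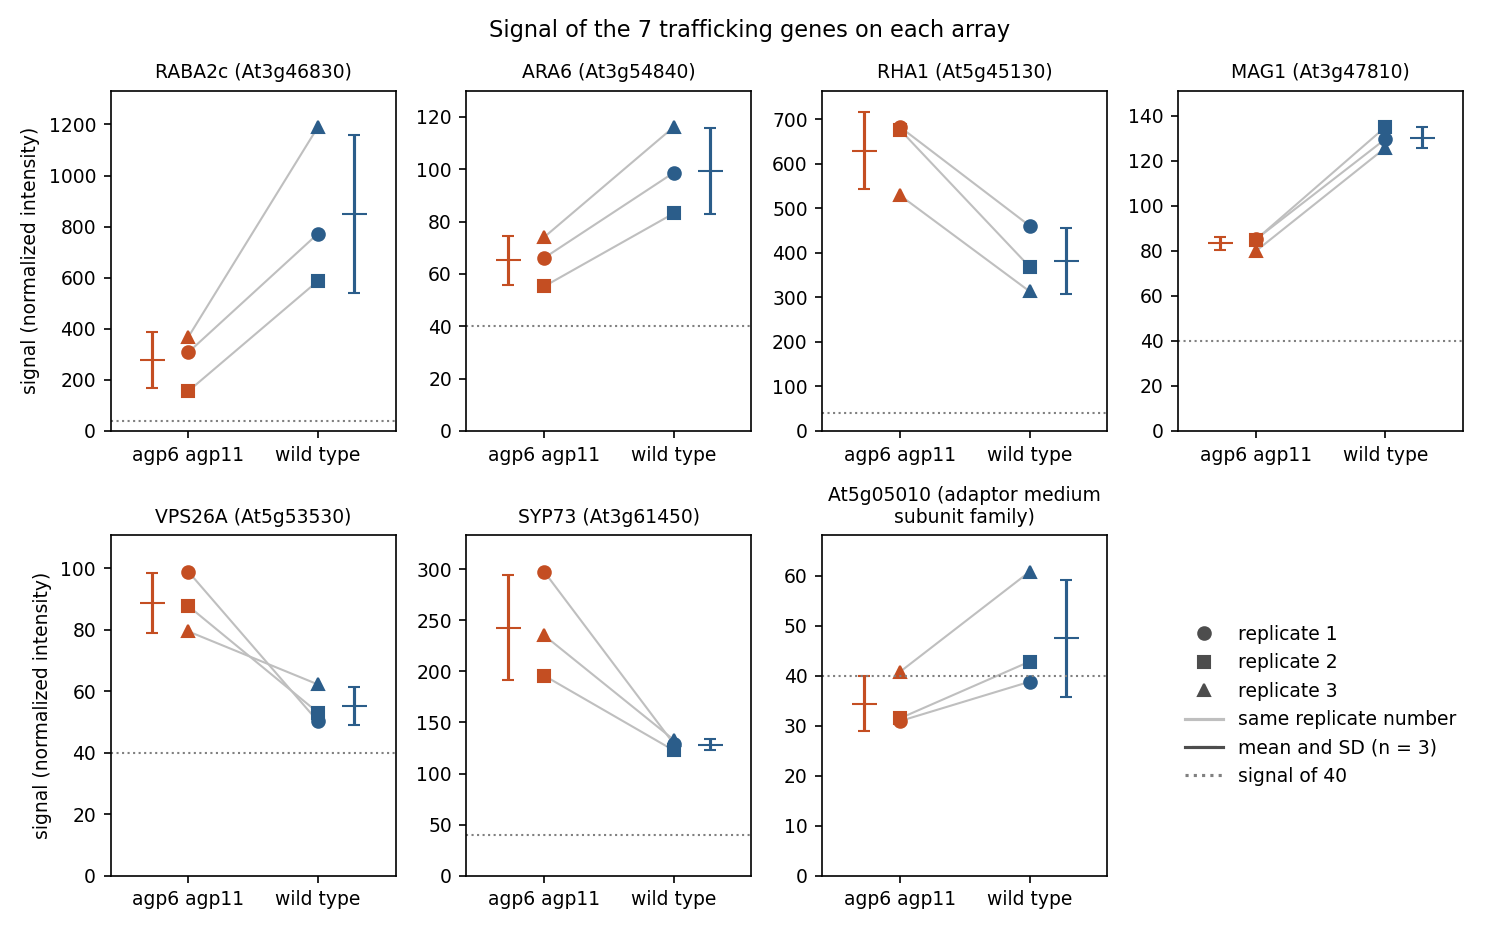
Signal (normalized intensity, linear axes that start at 0) of each of the 7 genes on the 3 agp6 agp11 arrays and the 3 wild type arrays, with one point for each array, a cross bar for the mean and SD, grey lines between arrays of the same replicate number and a dotted line at a signal of 40. The genotypes overlap for AT5G05010 alone. All 3 lines of a gene slope the same way in every panel, as they must where the genotypes do not overlap.

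RABA2c encodes a Rab of the Rab11-like group, which works at the trans-Golgi network and early endosome and marks the growing cell plate in dividing root cells. Its signals were 308, 156 and 368 on the agp6 agp11 arrays (replicates 1, 2 and 3), against 772, 587 and 1190.3 on the wild type arrays. All agp6 agp11 signals were below all wild type signals, and in both genotypes replicate 3 was the highest and replicate 2 the lowest. The mean signal was 277 ± 109 in agp6 agp11 and 850.1 ± 309 in wild type (SD, n = 3 arrays each). On the log2 scale the difference was -1.64 (standard error 0.39, 95% interval -2.51 to -0.78), which is 3.13-fold lower in agp6 agp11 (adjusted p = 0.0495 in limma, and 0.000354 with the replicate block). RABA2c fell, but its adjusted p lies at the threshold. Without the replicate block the call was lost when agp6 agp11 replicate 1 or 2 was left out (adjusted p = 0.139 and 0.127), when wild type replicate 1, 2 or 3 was left out (0.178, 0.0637 and 0.120), and when 32 was added to each signal before the log2 (0.0711).

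ARA6, also known as RABF1, encodes a Rab5-like GTPase that is found only in plants, is held on membranes by a lipid at its amino terminus and acts in traffic from endosomes to the plasma membrane. Its signals were 66.1, 55.2 and 74.1 on the agp6 agp11 arrays, against 98.7, 83.1 and 116 on the wild type arrays. The genotypes did not overlap, and replicates 3, 1 and 2 stood in the same order in both. The mean signal was 65.1 ± 9.45 in agp6 agp11 and 99.3 ± 16.5 in wild type (SD, n = 3 arrays each), a log2 difference of -0.61 (standard error 0.22, 95% interval -1.11 to -0.10). ARA6 did not pass the test (adjusted p = 0.247 in limma) and fell with the replicate block (adjusted p = 0.0453). Between arrays of the same number, the log2 difference was -0.58, -0.59 and -0.65 for replicates 1, 2 and 3.

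RHA1, also known as RABF2a, is a Rab5-like GTPase of the conventional kind, which acts on multivesicular endosomes and in transport to the vacuole. Its signals were 682, 676 and 529 on the agp6 agp11 arrays, against 461, 368.5 and 313 on the wild type arrays. All agp6 agp11 signals exceeded all wild type signals, and replicate 3 was the lowest in both genotypes. Mean signals were 629 ± 86.8 in agp6 agp11 and 381 ± 74.5 in wild type (SD, n = 3 arrays each), a log2 difference of 0.73 (standard error 0.26, 95% interval 0.15 to 1.32) or 1.66-fold. RHA1 did not pass the test (adjusted p = 0.226 in limma) and rose with the replicate block (adjusted p = 0.0201). RefSeq gives the name RHA1 to AT5G45130, while the study's text prints another locus under that name, which is not used here. ARA7, the closest relative of RHA1, was not analysed here.

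MAG1 encodes VPS29, and VPS26A encodes VPS26, both subunits of the core retromer complex, and MAG1 is known from mutants that fail to sort seed storage proteins. MAG1 had signals of 85.1, 85.0 and 79.9 on the agp6 agp11 arrays, against 129.7, 135 and 126 on the wild type arrays. These were the most even values among the 7 genes, and the genotypes lay far apart relative to their spread. The mean signal was 83.3 ± 2.965 in agp6 agp11 and 130.15 ± 4.64 in wild type (SD, n = 3 arrays each), a log2 difference of -0.64 (standard error 0.20, 95% interval -1.09 to -0.19). MAG1 did not pass the test (adjusted p = 0.148 in limma) and fell with the replicate block (adjusted p = 0.0349). The standard error in limma is drawn towards that of probe sets of like signal, so the evenness of these 6 values counts only in part.

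VPS26A had signals of 98.9, 87.7 and 79.5 on the agp6 agp11 arrays, against 50.2, 53.1 and 62.2 on the wild type arrays. The genotypes did not overlap, but they stood closest at replicate 3, where the log2 difference was 0.35, against 0.98 and 0.72 for replicates 1 and 2. Its signal averaged 88.7 ± 9.75 in agp6 agp11 and 55.2 ± 6.29 in wild type (SD, n = 3 arrays each), a log2 difference of 0.69 (standard error 0.20, 95% interval 0.23 to 1.14) or 1.61-fold. VPS26A did not pass the test (adjusted p = 0.128 in limma) and rose with the replicate block (adjusted p = 0.0451). The VPS35 genes, for the remaining subunit of the core complex, were not analysed here.

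SYP73 encodes a syntaxin of a family found only in plants and lies on the endoplasmic reticulum, which it links to the actin cytoskeleton. Its signals were 298, 196 and 235 on the agp6 agp11 arrays, against 129, 123 and 133 on the wild type arrays. The wild type arrays were nearly alike, the agp6 agp11 arrays were spread out, and the lowest agp6 agp11 signal exceeded the highest wild type signal. Mean signals were 243 ± 51.3 in agp6 agp11 and 128 ± 5.24 in wild type (SD, n = 3 arrays each), a log2 difference of 0.90 (standard error 0.24, 95% interval 0.36 to 1.44) or 1.87-fold. SYP73 did not pass the test (adjusted p = 0.0871 in limma) and rose with the replicate block (adjusted p = 0.0106). It had the largest rise among the 7 genes with the block.

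AT5G05010 belongs to the adaptor medium subunit family and encodes the delta subunit of coatomer, the coat of vesicles that return from the Golgi apparatus to the endoplasmic reticulum, so its protein is not a clathrin adaptor of endosomes. Its signals were 30.9, 31.5 and 40.8 on the agp6 agp11 arrays, against 38.8, 42.8 and 60.8 on the wild type arrays. The genotypes overlapped, replicate 3 was the highest in both, and 1 agp6 agp11 array and 2 wild type arrays exceeded a signal of 40. It averaged 34.4 ± 5.54 in agp6 agp11 and 47.5 ± 11.7 in wild type (SD, n = 3 arrays each), a log2 difference of -0.45 with a 95% interval of -0.95 to 0.05. AT5G05010 did not pass the test (adjusted p = 0.430 in limma, and 0.142 with the replicate block).

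**Figure D2:**
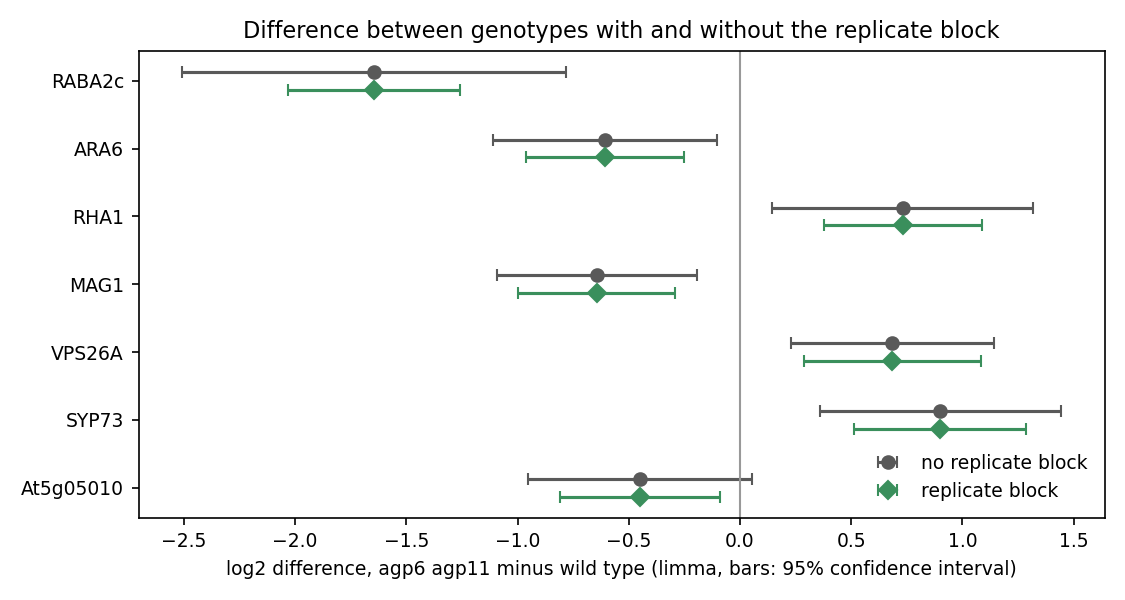
Log2 difference in signal, agp6 agp11 minus wild type, for each of the 7 genes, as fitted by limma without (grey circles) and with (green diamonds) the replicate block, with bars for 95% confidence intervals. The differences are the same in both fits and the intervals are narrower with the block, most of all for RABA2c.

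The block left the differences as they were and changed their errors. The standard errors of the 7 genes lay between 0.157 and 0.178 with the replicate block and between 0.201 and 0.385 without it. RABA2c had deviations from the genotype mean of 0.24, -0.74 and 0.50 on the log2 scale in agp6 agp11 and of -0.08, -0.47 and 0.55 in wild type, and its standard error changed most, being 0.17 with the block and 0.39 without it. VPS26A deviated in opposite directions at replicates 1 and 3, and its standard error changed little, being 0.18 with the block and 0.20 without it. Over the 7 genes, 15 of 21 pairs of same-numbered arrays deviated in the same direction (Pearson's r = 0.76 over 21 points, of which each gene gives 3 and each pair of arrays 7). With the wild type numbers shifted by 1, 5 of 21 did (r = -0.69), and shifted by 2, 11 did (r = -0.07). The deviations of a gene within a genotype cancel out, so the points are not independent. Over all probe sets, same-numbered arrays correlated at 0.239 to 0.379. All 4 genes with lower mean signals were lower in every same-numbered pair, and all 3 with higher mean signals were higher in every pair. For the 6 genes whose genotypes do not overlap, any other pairing gives the same, so this says nothing about the replicate numbers.

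**Figure D3:**
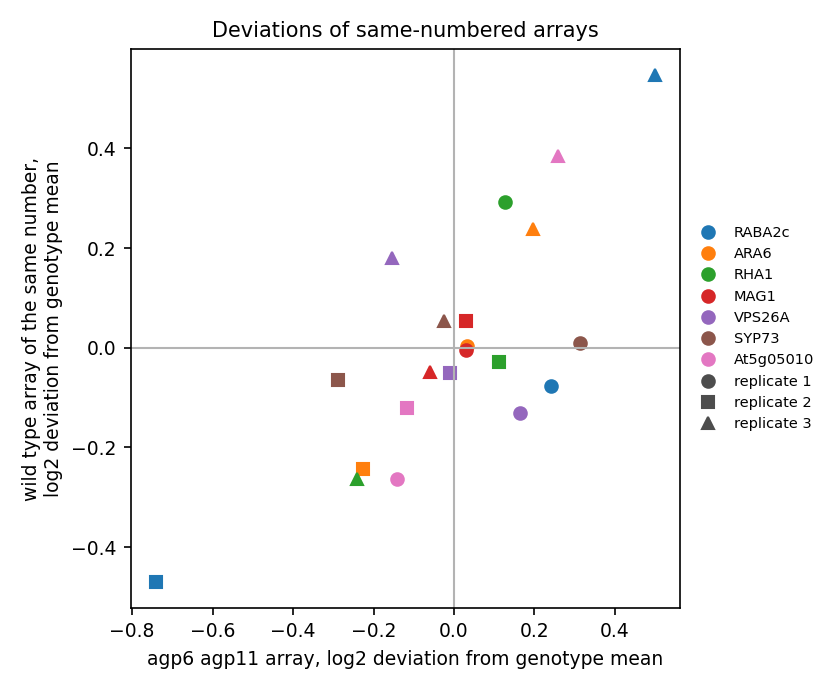
Log2 deviation of each array from the mean of its genotype for the 7 genes, with agp6 agp11 arrays on the horizontal axis and the wild type array of the same replicate number on the vertical axis, colours for genes and shapes for replicate numbers. RABA2c lies farthest out, with replicate 3 above and replicate 2 below the mean in both genotypes, and 15 of the 21 points lie where both arrays deviate in the same direction.

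By the cutoff that the study used, which asks that the lower bound of the fold change exceed 1.3, 5 of the 7 genes passed, as did 6.46% of all probe sets and 67.6% of those named in the study's list. The bound was computed here as a 90% bound from the spread between arrays and not with the study's software, so it can differ from the study's own. It is given with a minus sign where the signal was lower in agp6 agp11. It was -1.81 for RABA2c, 1.51 for SYP73, -1.49 for MAG1, 1.38 for VPS26A and 1.32 for RHA1. ARA6 fell short at -1.23, and AT5G05010 fell short at -1.02. The 5 that passed are the 5 that only the study's list names, and that list was drawn up from fold changes on these arrays, so nothing is read from the count.

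The ratio of 2 signals within an array was taken for the pair of Rab5-like genes and for the pair of retromer genes, which were chosen after their values were seen and so carry no test. The size of such a ratio depends on the probes, and only its difference between genotypes is read. The log2 ratio of RHA1 to ARA6 was 3.37, 3.61 and 2.84 on the agp6 agp11 arrays and 2.22, 2.15 and 1.43 on the wild type arrays, a difference of 1.34 between the means of 3.27 ± 0.40 and 1.93 ± 0.44 (SD, n = 3 arrays each). The lowest agp6 agp11 ratio lay above the highest wild type ratio. This had to be so, since RHA1 was higher and ARA6 lower on every agp6 agp11 array. The log2 ratio of VPS26A to MAG1 was 0.22, 0.05 and -0.01 on the agp6 agp11 arrays and -1.37, -1.35 and -1.02 on the wild type arrays, a difference of 1.33 between the means of 0.09 ± 0.12 and -1.24 ± 0.20, which became 0.96 when 32 was added to each signal. The genotypes could not overlap here either, since VPS26A was higher and MAG1 lower on every agp6 agp11 array. The ratios thus restate the differences of the single genes. Both retromer genes were named by a list chosen for differences, and neither passed the test without the block.

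**Figure D4:**
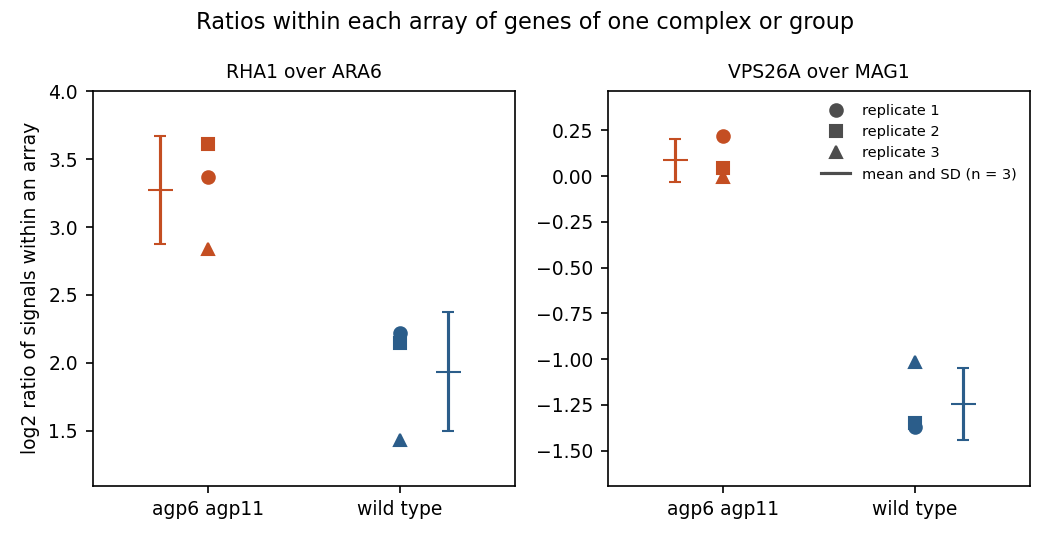
Log2 ratio of 2 signals within each array for RHA1 over ARA6 and VPS26A over MAG1, with one point for each array and a cross bar for the mean and SD of the 3 arrays of a genotype. The vertical axes differ between panels. In both panels all 3 agp6 agp11 arrays lie above all 3 wild type arrays, which follows from the signals of the single genes.

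Beyond the 7 genes, 5 lists of membrane traffic genes were taken up, with 161 loci of which 45 could be named, the 7 included. Of these 45, 2 rose, 1 fell and 42 did not pass the test, and with the replicate block 12 rose, 4 fell and 29 did not pass. These counts stand beside 3.68% of all probe sets called without the block and 8.34% with it, but 16 of the 45 genes are named only by the study's list, of which 41.4% and 76.3% were called. Their median log2 difference was 0.23, beside 0.03 over all probe sets. Of the 873 probe sets that only the study's list names, 644 were higher in agp6 agp11 and 229 lower, so the naming itself leans upward. Apart from the 7, 27 of the list genes are named by the annotation table, of which 2 rose and 25 did not pass, with a median of 0.09. The lists were written with results of these data known and are described by counts alone.

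Of 57 Rab GTPase genes 12 were named, 9 of them through the study's list only. RABA2c fell and the other 11 did not pass the test, while with the replicate block 5 rose, 2 fell and 5 did not pass. With 76.3% of the study's list called in that fit, a count of 7 among these 12 says nothing particular to Rab genes. RABE1a, a Rab8-like GTPase of traffic from the Golgi apparatus to the plasma membrane, had signals of 231, 168 and 208 on the agp6 agp11 arrays, against 110.0, 113 and 114 on the wild type arrays, a log2 difference of 0.83 (adjusted p = 0.0917 in limma, and 0.0150 with the replicate block). RABD1, a Rab1-like GTPase of traffic out of the endoplasmic reticulum, had a log2 difference of 0.61 (adjusted p = 0.0681 in limma, and 0.0456 with the block). It is among the 5 that rose with the block, though it stayed under a signal of 40 on every array. RABD2b, of the same kind, and RABA1c, which like RABA2c is Rab11-like, also rose with the block (adjusted p = 0.0271 and 0.0444), with log2 differences of 0.69 and 0.60, and are named for that reason. Of the Rab11-like genes, RABA2c thus lay below zero, and RABA1c and RABA5a (log2 difference 0.54, passed in neither fit) lay above it. These Rab11-like genes are named only through the study's list, which was drawn up from differences. RABH1b and RABE1b, which along with ARA6 are the Rab genes that the annotation table names, had log2 differences of 0.27 and -0.14 and passed in neither fit.

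Of 16 genes for retromer, sorting nexins and vacuolar sorting receptors, MAG1, VPS26A and VSR3 were named, all through the study's list only. None of the 3 passed, while with the block 1 rose, 1 fell and 1 did not pass. VSR3, a vacuolar sorting receptor, had a log2 difference of 0.46 (adjusted p = 0.261 in limma, and 0.143 with the block) at signals under 40, from a probe set that may match several genes. Of 41 SNARE genes 4 were named and none passed, while with the block 2 rose, 1 fell and 1 did not pass. VAMP726, a SNARE of the vesicle side, had signals of 43.8, 60.05 and 68.1 on the agp6 agp11 arrays, against 106, 102 and 115 on the wild type arrays, a log2 difference of -0.93 (adjusted p = 0.0605 in limma, and 0.00979 with the block). Its agp6 agp11 signals were all lower than its wild type signals, in contrast to those of SYP73. SYP51, a syntaxin of the trans-Golgi network and the vacuole, and SYP81, a syntaxin of the endoplasmic reticulum, had log2 differences of 0.61 each (adjusted p = 0.0363 and 0.0519 with the block, and 0.342 and 0.227 without it).

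Of 40 coat and adaptor genes 23 were named, all by the annotation table, and 2 rose, none fell and 21 did not pass the test, while with the replicate block 4 rose and 19 did not pass. Of all probe sets that this table names, 3.56% were called without the block and 7.88% with it. Both that rose encode the alpha subunit of coatomer. AT2G21390 had signals of 169, 123 and 157 on the agp6 agp11 arrays, against 35.7, 31.3 and 43.2 on the wild type arrays, of which 1 exceeded 40, with a log2 difference of 2.03 (standard error 0.22, adjusted p = 0.00106 in limma). AT1G62020 had signals of 288, 209 and 239.6 on the agp6 agp11 arrays, against 80.2, 76.4 and 79.7 on the wild type arrays, with a log2 difference of 1.63 (standard error 0.22, adjusted p = 0.00334). No agp6 agp11 signal of these 2 genes came near a wild type signal, and the genes are close paralogs whose transcripts the array may not tell apart. COPG, for the gamma subunit, had a log2 difference of 0.63 and rose with the block only (adjusted p = 0.0478, and 0.245 without it), as did AP4S, for the small subunit of the AP-4 adaptor, with 0.62 (adjusted p = 0.0441, and 0.115 without it). AP4S exceeded a signal of 40 on 2 of the 3 agp6 agp11 arrays and on no wild type array. The other 7 named coatomer genes passed in neither fit. The 3 beta-prime genes AT1G79990, AT1G52360 and AT3G15980 had log2 differences of 0.44, -0.10 and 0.07, the epsilon genes AT1G30630 and AT2G34840 had -0.46 and 0.20, the zeta gene AT1G60970 had 0.24 and AT5G05010 had -0.45. Of these, both epsilon genes and AT1G52360 stayed under a signal of 40 on every array. Of the 7 listed regulators of Rab GTPases 3 were named, MON1, CCZ1A and CCZ1B, which together hand endosomes over to the Rab7 stage. Their log2 differences were 0.24, -0.05 and 0.23, and none passed in either fit.

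**Figure D5:**
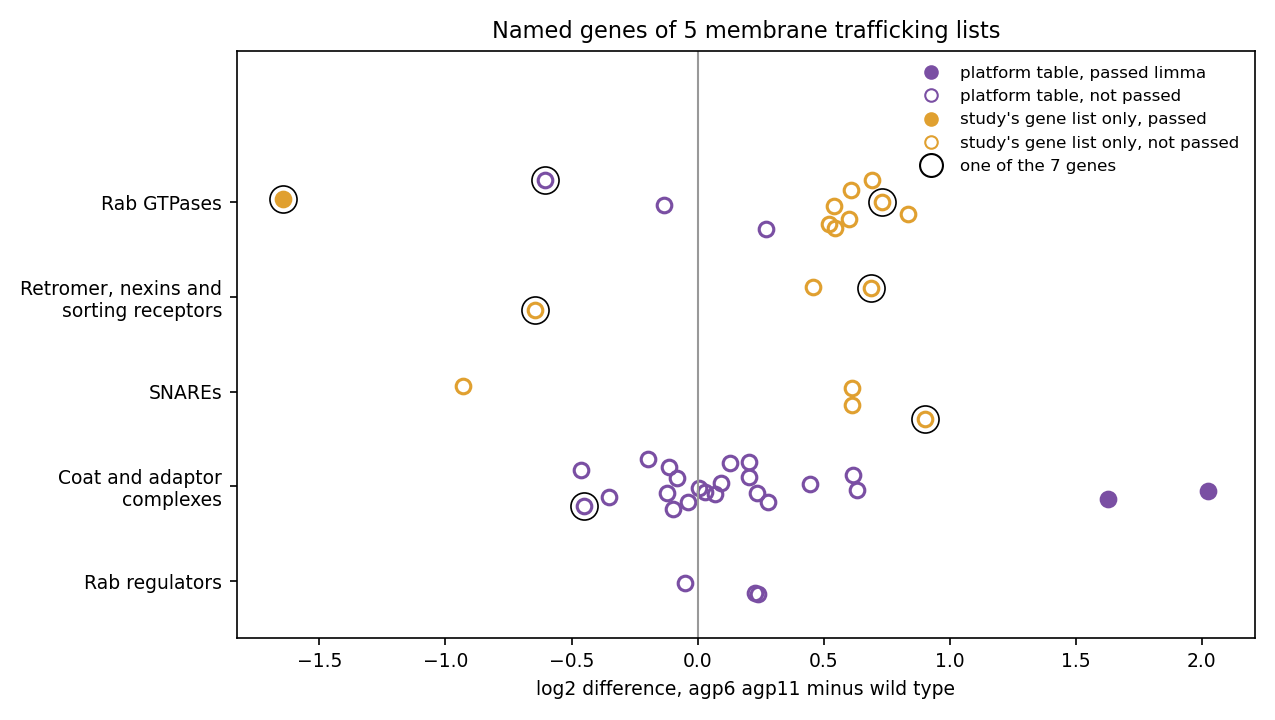
Log2 difference in signal, agp6 agp11 minus wild type, for the 45 named genes of 5 membrane traffic lists, with one point for each gene, filled where it passed the test without the replicate block, purple where the annotation table names it, orange where only the study's list does, and ringed for the 7 genes. The orange point nearest zero lies at 0.46, while the purple points run from -0.61 to 0.63 apart from 2 coatomer genes at 1.63 and 2.03.

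Among 4243 named probe sets with a mean signal of at least 40, those most like each of the 7 genes were sought by Pearson's correlation of log2 signals over the 6 arrays. These values are a description, since with 2 genotypes of 3 arrays any gene that differs between them follows any other that does. AT1G78260 was the closest to both RABA2c (r = 0.997) and ARA6 (r = 0.997), followed by SD2-5 for RABA2c (r = 0.994) and AT1G07160 for ARA6 (r = 0.996). RHA1 was closest to AT3G07860 and AT2G14835 (r = 0.989 each). MAG1 was closest to AGP6 (r = 0.998) and AT4G20530 (r = 0.998), and so lay nearest to a pure contrast of the genotypes. VPS26A was closest to AT1G77260 (r = 0.991) and AT1G74290 (r = 0.984), and SYP73 to AT3G13280 and AT3G45750 (r = 0.998 each). AT5G05010 was closest to AT3G58290 (r = 0.995) and AT3G02750 (r = 0.974).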

How the data were processed

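The deposited values are normalized intensities: the authors used dChip to scale the 6 arrays on an invariant set of probes and to fit model-based signals to perfect match probes. No earlier step was repeated, and all 22746 probe sets were tested. Signals were raised to at least 1, taken as log2 and compared as agp6 agp11 minus wild type with limma 3.58.1 in R 4.3.3 (lmFit, eBayes with trend), adjusted by the Benjamini-Hochberg method. The script was tested on simulated data. The number of arrays limits the precision, and the preparations are the replicates.

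An annotation table names 1 gene for 13513 probe sets, several for 503 and none for 8730. The study's list has 1999 rows, and 873 probe sets take their name from it only. The table and the list differ on 26, where the list's name was used, and RefSeq updated the symbols. The brightest probe set stands for a locus. The 7 genes and the gene lists were chosen with earlier results of these data known. The genes named are the 7, AGP6 and AGP11, in each list those that passed and up to 4 with the smallest p, and for each of the 7 the 2 most like it. RABD2b, RABA1c, RABA5a and further coatomer genes were named after their values were seen.

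The sample labels number the replicates and do not say what the number stands for. Deviations from the genotype mean correlated at 0.239, 0.347 and 0.379 between arrays of the same number and at 0.0711 or less between others. Deviations within a genotype cancel out, so these correlations are not independent. The numbers were treated as pairs on this ground alone, a choice made from the same arrays that were tested. Values with the replicate block are given where they change a call.

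The alternatives were quantile normalization, median centring, an offset of 32, a mean signal of at least 40, eBayes without trend, array weights, the replicate block, the lower bound of the fold change (Fieller's method, z = 1.645), omission of less specific probe sets (names in _s_at or _x_at), and omission of each array. Figures were drawn with matplotlib 3.10.9.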

Additional observations from a re-analysis of the deposited data

How the results depend on the processing

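None of the 7 genes changed direction under any of its 14 alternatives, but many of these could not have reversed it. The replicate block, the fit without the trend and the filter on mean signal leave the difference as it is. Omission of an array cannot reverse a gene whose genotypes do not overlap. Counts of calls depended on the fit. All probe sets gave 837 calls, and 1897 with the replicate block, 2019 with array weights, 1470 by the lower bound of the fold change and 372 to 871 without any 1 array. Of the 7 genes 1 passed. The count was 6 with the replicate block, 5 by the lower bound, 4 with array weights, 2 with a mean signal of at least 40 and 2 without the trend. It was 0 with an offset of 32 and 0 to 1 without any 1 array. SYP73 was the gene added by the filter on mean signal and by the fit without the trend (adjusted p = 0.0445 and 0.0419 in limma). Array weights added SYP73, VPS26A and MAG1 (adjusted p = 0.0138, 0.00962 and 0.0431 in limma). The Rab, retromer, SNARE and coat lists together gave 3 calls, and 16 with the replicate block, 14 by the lower bound, 11 with array weights, 6 with a mean signal of at least 40, 6 without the trend and 2 to 4 without any 1 array. The cause of these differences was not tested. The replicate block changed no call of a named gene beyond those given with it. Each of the 7 genes has 1 probe set, so another probe set could not be tried. Signals near 40, as for AT5G05010, limit what can be said of a difference.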
